A study of Rattus norvegicus with 6 samples.

Results

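Oligodendrocyte precursor cells were examined in RNA sequenced from single nuclei of the shell of the nucleus accumbens, a part of the ventral striatum that serves reward. A nucleus was counted as a precursor when it held at least 1 UMI (unique molecular identifier, a counted RNA molecule) of Pdgfra, at least 3 UMIs of Cspg4, Vcan and Lhfpl3 summed, no UMI of Mog, fewer than 2 of Gpr17 and fewer than 5 of Pde10a. Lhfpl3 was not analysed here, so the sum rested on Cspg4 and Vcan. This gave 629 nuclei of the 37456 kept, from 41974 barcodes. The tissue came from adult Long-Evans rats aged 90 to 100 days, which had been pair housed with rats of the same sex since weaning. Each of the 6 libraries, 3 female and 3 male, pooled shell punches of 4 rats, 24 rats in all. A pool averages its animals, so the spread between libraries is a spread between pools. The rule used the levels of these genes themselves, and their levels in the chosen nuclei are therefore a description.

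Oligodendrocyte precursors are glial cells that persist in the adult brain, where they divide slowly, tile the tissue with their processes and give rise to myelinating oligodendrocytes. They depend on platelet-derived growth factor acting on the receptor Pdgfra, carry the proteoglycan NG2 (the product of Cspg4) and receive synaptic input from neurons through glutamate and GABA receptors. On leaving this state they lose Pdgfra, pass through a short committed stage marked by Bcas1 and Enpp6, and then switch on the myelin genes under the factor Myrf.

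The female pools 1 to 3 gave 76, 39 and 280 precursors and the male pools 1 to 3 gave 136, 55 and 43. Their summed UMIs ran from 92990 in female pool 2 to 1066035 in female pool 3, so that 1 UMI was worth 10.8 and 0.938 CPM (counts of a gene scaled to 1000000 UMIs of that library's precursors). The median precursor held 2275 to 3694 UMIs by library. Female pool 3 and male pool 1 were worded alike in the labels (set A) and the other 4 libraries alike in another way (set B). This split was balanced over sex, and the labels do not say what it stands for. Barcodes above 5% mitochondrial UMIs made up 1.55% and 2.28% of set A and 13.1% to 40.7% of set B. Across 41760 distinct barcodes, 213 occurred in more than 1 library, as 3 to 52 per pair of libraries. Some members carried much neuronal RNA: 42 in female pool 3 (15%), 7 in male pool 1 (5.15%) and 0 to 2 in each of the others held over 40 UMIs of Syt1, Snap25 and Rbfox3 per 10000.

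The nuclei carried other genes known from precursors. C1ql1, a secreted synaptic protein of precursors that the rule did not use, was at 267, 366 and 243 CPM in the female pools and at 316, 284 and 386 CPM in the male pools. The same gene lay between 2.57 and 10.0 CPM in nuclei gated as mature oligodendrocytes (3971 nuclei with Mog and at least 5 UMIs summed over myelin genes, Mbp and Mag among them) and between 0 and 12 CPM in nuclei gated as astrocytes (1036 nuclei with Aqp4). Precursors were above the other glia for it in every library. Of the genes of the rule, Vcan, a large proteoglycan, stood at 1271 to 1640 CPM, Pdgfra at 656 to 1537 CPM and Cspg4 at 266 to 817 CPM. The 4 precursor markers analysed summed to 2536 to 3818 CPM, against 54.6 to 87.3 CPM in mature nuclei. The gates set this contrast in part: 3 of the 4 are genes of the rule, and the mature gate left out nuclei with Pdgfra.

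Markers of other cells were low but not absent. The 10 mature oligodendrocyte genes summed to 392 to 707 CPM in precursors and to 6686 to 15980 CPM in mature nuclei. The 8 astrocyte genes summed to 549 to 1065 CPM, against 5045 to 7398 CPM in astrocytes. The gates of mature nuclei and astrocytes used genes of these lists. The 6 microglial genes, Inpp5d among them, summed to 81.6 to 140 CPM in the female and 19.8 to 77.3 CPM in the male pools. The nearest pools, female pool 3 and male pool 3, lay less than 1 UMI of male pool 3 (8.59 CPM) apart. The 5 endothelial and mural genes summed to 0 to 56.8 CPM. Of the 4 fibroblast genes, Col1a1 and Lum were at 0 in every library and the sum reached 6.31 CPM. The 3 neuronal genes Syt1, Snap25 and Rbfox3 summed to 1751, 1011 and 3008 CPM in the female and 1730, 1098 and 1219 CPM in the male pools, against 4585 to 6368 CPM in spiny neurons (11893 nuclei with at least 5 UMIs of Pde10a). Female pool 3 stood highest in neuronal RNA, both in precursors and in its mature nuclei (3422 CPM).

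At the edges of the rule C1ql1 and Ptprz1 were lower just outside the Cspg4 and Vcan sum, and lower still in nuclei without Pdgfra. The 129 members with a Cspg4 and Vcan sum of exactly 3 had C1ql1 at 304 CPM and Ptprz1 at 2862 CPM, and the 132 nuclei just outside, with a sum of 2, had 206 and 2405 CPM. The 292 nuclei with the sum but no Pdgfra UMI had C1ql1 at 69.6 CPM, Ptprz1 at 680 CPM and the neuronal gene Syt1 at 3854 CPM. The 148 members with exactly 1 UMI of Pdgfra had C1ql1 at 267 CPM, Ptprz1 at 2879 CPM and Syt1 at 1902 CPM. Gpr17, a receptor of committed precursors, turned away no nucleus: 6 members held 1 UMI and none held 2. The 104 nuclei turned away by Mog had Mbp, the myelin basic protein gene, at 1280 CPM, far above the members. The 33 members with 4 UMIs of Pde10a had Ptprz1 at 1845 CPM, and the 16 nuclei with 5 had 2525 CPM.

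Precursors formed a small share of the kept nuclei in both sexes. In the female pools they were 2.40% (95% Wilson interval 1.92 to 2.99), 1.36% (0.995 to 1.85) and 1.70% (1.51 to 1.91). In the male pools they were 1.55% (1.31 to 1.83), 1.77% (1.37 to 2.30) and 1.43% (1.06 to 1.92). Female pool 1 held the highest and female pool 2 the lowest share, so the female pools spanned the male ones. The means were 1.82% ± 0.531 in females and 1.58% ± 0.176 in males (SD, n = 3 each), and an exact 2-sided permutation test gave p = 0.7 (0.7 adjusted over 3 shares). Within label set A the female pool was 0.150 percentage points above the male, and within set B the difference of means was 0.278. With 3 pools against 3 the smallest p this test can reach is 0.1, and the intervals cover counting error only.

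**Figure D1:**
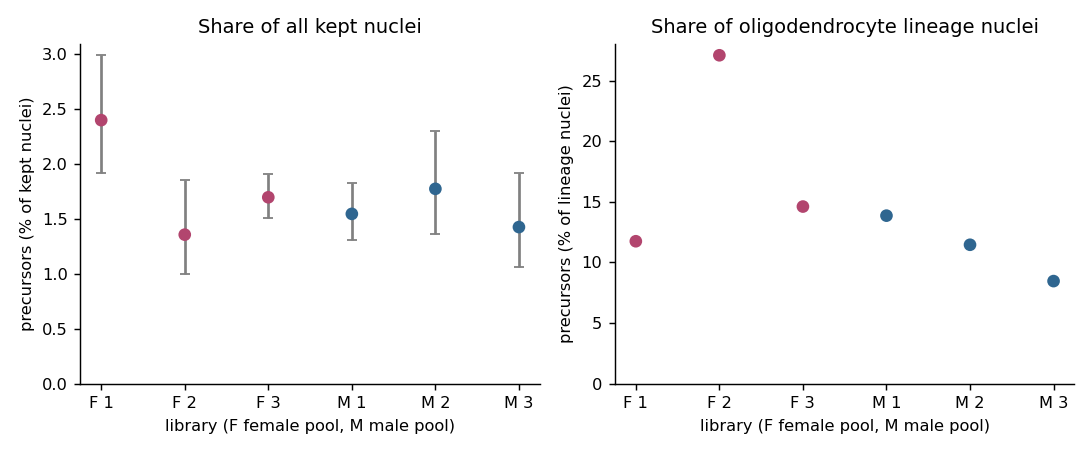
Precursors as a percentage of kept nuclei (left, with 95% Wilson intervals) and of oligodendrocyte lineage nuclei (right), for each female (F) and male (M) pool. The female pools span the male pools on the left, and female pool 2 stands apart at 27.1% on the right.

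Within the oligodendrocyte lineage (precursors, committed precursors and mature oligodendrocytes by their gates) precursors were 11.8%, 27.1% and 14.6% in the female pools. In the male pools they were 13.9%, 11.5% and 8.47%. Female pool 2, the highest, held 102 mature nuclei against 417 to 1595 in the other libraries, and 40.7% of its barcodes were over the mitochondrial limit. The part of these in its share was not tested. The female mean of 17.8% ± 8.16 and the male mean of 11.3% ± 2.71 (SD, n = 3 each) did not separate (exact 2-sided permutation p = 0.2, adjusted 0.6). The female minus male difference was 0.743 percentage points within set A and 9.45 within set B. Without female pool 2 the pooled difference of 6.55 points was 1.91 points.

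The comparisons of precursors with other gated classes below are descriptions without a test, since the gates chose nuclei by their counts. A gene was called higher or lower when its CPM in precursors lay above or below the other class in 6 of 6 libraries, among genes whose mean over the classes compared was at least 20 CPM. By that measure 1582 of 7792 genes (20.3%) were higher than in mature oligodendrocytes and 1122 (14.4%) were lower. Against astrocytes 1301 of 7880 genes (16.5%) were higher and 1226 (15.6%) lower. The median log2 ratio over all genes compared was 0.02 and 0.00.

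**Figure D2:**
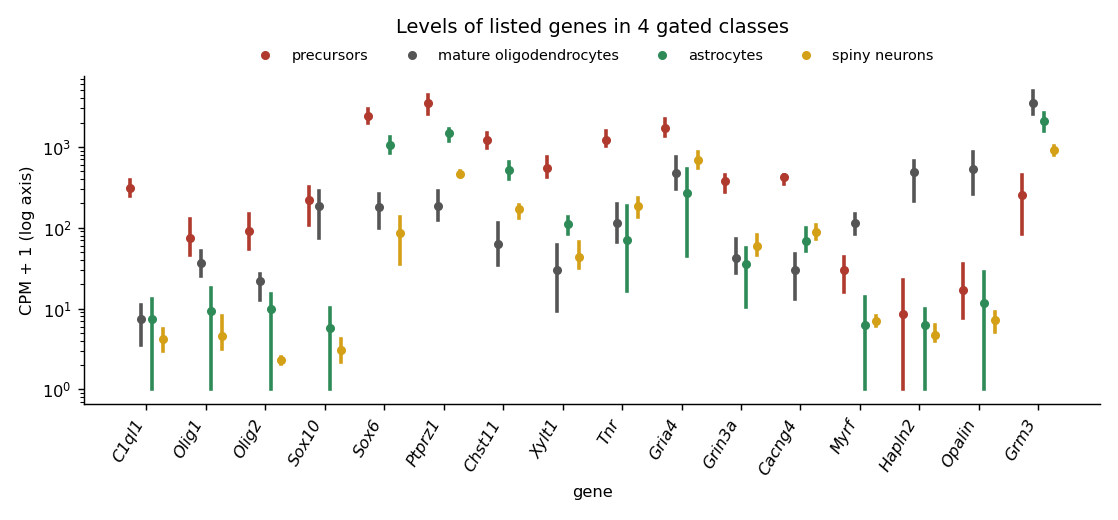
Levels of 16 listed genes in CPM + 1 on a log axis for precursors, mature oligodendrocytes, astrocytes and spiny neurons, as the mean (point) and the range over 6 libraries (line). C1ql1, Ptprz1, Chst11, Xylt1, Tnr, Grin3a and Cacng4 are highest in precursors, while Myrf, Hapln2, Opalin and Grm3 are highest in mature oligodendrocytes.

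Lineage transcription factors of the early stages were higher in precursors and several of the myelinating stage were lower. Of 12 compared with mature oligodendrocytes, 7 were higher and 4 lower (median log2 ratio 0.51). Sox6, a factor that holds precursors in the undifferentiated state, was at 2485, 1957 and 1987 CPM in the female pools and at 2336, 2984 and 2816 CPM in the male pools. In mature nuclei it ran from 97.1 to 262 CPM and in astrocytes from 845 to 1339 CPM. Its partner Sox5 stood at 582 to 744 CPM, against 11.6 to 244 CPM in mature nuclei. Both stood above mature nuclei and astrocytes in every library.

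Olig2, which specifies the lineage, was at 71.0, 129 and 54.4 CPM in the female and 59.3, 88.3 and 146 CPM in the male pools, above the range of mature nuclei (11.8 to 25.7 CPM). Olig1 was at 45.0 to 129 CPM against 24.6 to 50.0 CPM. Sox10, which is shared by the whole lineage, spanned 107 to 323 CPM in precursors and 73.6 to 287 CPM in mature nuclei, ranges that overlapped, and reached at most 9.20 CPM in astrocytes. Etv1, an effector of growth factor signalling, was at 161 to 361 CPM against 75.6 to 105 CPM in mature nuclei. The factors of the myelinating stage went the other way: Myrf was at 15 to 43.0 CPM in precursors and 82.4 to 147 CPM in mature nuclei, Zfp536 at 25.8 to 64.7 against 143 to 272 CPM, and Prox1 at 17.2 to 33.8 against 75.6 to 158 CPM. Tcf7l2, which acts as cells commit, was at 103 to 138 CPM. Hes5, Nkx2-2 and Zfp488 did not exceed 17.2 CPM in any library, a range of 0 to 2 UMIs.

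The genes that stood highest above the other glial classes were chosen by a fixed rule: a mean of at least 50 CPM, outside the gates, ranked by the smallest of the 6 ratios to the highest of mature, astrocyte and committed nuclei. Col5a3, a fibrillar collagen chain, led with 1383, 1860 and 750 CPM in the female and 1018, 1848 and 1871 CPM in the male pools, against means of 13.3 CPM in mature oligodendrocytes and 22.6 CPM in astrocytes. Its smallest log2 ratio was 5.35, and female pool 3 was the lowest library. Fam89a followed at 254 to 473 CPM, and then Megf11, an engulfment and repulsion receptor, at 867 to 1287 CPM. Pcdh15, a protocadherin, was at 1686 to 2397 CPM against at most 94.4 CPM in mature nuclei.

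Signalling molecules were among the 15. Calcrl, the receptor subunit for calcitonin gene-related peptide and adrenomedullin, was at 374 to 558 CPM and did not exceed 37.6 CPM in astrocytes or 29.4 CPM in mature nuclei. Ror2, a Wnt5a receptor, was at 76.9 to 112 CPM against means of 2.70 and 8.39 CPM. Ccnd1, the cyclin of the G1 phase, was at 64.5 to 120 CPM against 2.80 and 3.48 CPM. Pstpip2 (703 to 1108 CPM), Emid1 (455 to 721 CPM), Rlbp1, a retinoid-binding protein (281 to 452 CPM), Stk32a (209 to 344 CPM), Tmem255b (58.2 to 112 CPM) and the sulfotransferase Chst5 (50.5 to 101 CPM) showed the same pattern. The unnamed loci AABR07033720.1 (893 to 1511 CPM) and AABR07044668.1 (738 to 1035 CPM) completed the list. Stk32a was the gene of the list with the highest level in spiny neurons, at 115 CPM on average.

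**Figure D3:**
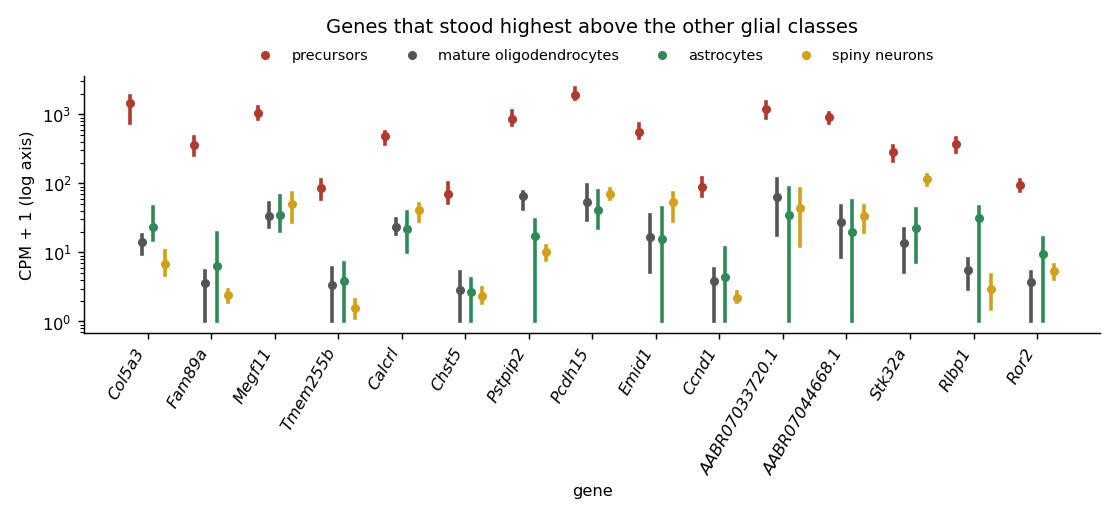
The 15 genes that stood highest in precursors above the other glial classes, in CPM + 1 on a log axis, as the mean (point) and range over 6 libraries (line) in 4 classes. The precursor range lies above the other 3 ranges for each gene, with spiny neurons nearest for Stk32a.

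Chondroitin sulfate proteoglycans and matrix genes had the highest median ratio to mature oligodendrocytes among the gene lists compared. Of 14 compared with mature oligodendrocytes 12 were higher and 1 lower, with a median log2 ratio of 2.61. Ptprz1, a receptor phosphatase that carries chondroitin sulfate, was at 3610, 3785 and 2553 CPM in the female and 3033, 4409 and 3485 CPM in the male pools. It reached 283 CPM in mature nuclei and 1171 to 1646 CPM in astrocytes. The lowest precursor library thus lay above the highest astrocyte library.

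Enzymes that build and sulfate the sugar chains followed. Chst11 was at 970 to 1501 CPM against 33.2 to 113 CPM in mature nuclei, and Xylt1, which starts the chain, at 427 to 757 CPM against 8.39 to 60.1 CPM. Tenascin-R (Tnr) was at 1035 to 1575 CPM, with at most 194 CPM in mature nuclei and 183 CPM in astrocytes. Smoc1, a secreted calcium-binding matrix protein, was at 133 to 240 CPM against at most 15.6 CPM in mature nuclei. The lower gene was Hapln2, a link protein of nodes of Ranvier, at 0 to 21.5 CPM in precursors and 216 to 672 CPM in mature nuclei. Against astrocytes the list split, with 7 genes higher and 5 lower of 14. Brevican (Bcan) was at 51.5 to 172 CPM in precursors and 333 to 442 CPM in astrocytes, and neurocan (Ncan) at 64.5 to 129 and 138 to 232 CPM.

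In the pathway downstream of Pdgfra, Etv transcription factors were higher in precursors, adaptors were lower and ligands went both ways. Of 10 genes compared with mature oligodendrocytes 5 were higher and 4 lower (median log2 ratio 0.32). Etv4, a transcription factor induced by receptor tyrosine kinases, was at 115 to 227 CPM against 4.90 to 14.7 CPM in mature nuclei, and Etv5 at 60.1 to 113 against 13.7 to 36.7 CPM. The inhibitors Spry4 (25.8 to 62.3 CPM) and Spred1 (189 to 389 CPM) were above mature nuclei in each library, where Spry4 did not exceed 3.29 CPM. Spry4 lay just under the minimum level and is not among the 5, which were Etv4, Etv5, Spred1, Pdgfc and Pdgfd. The feedback regulators Spry2 (0 to 17.2 CPM) and Dusp6 (0 to 21.6 CPM) were not above mature nuclei in every library. Among ligands, Pdgfa was at 6.31 to 37.2 CPM in precursors and 34.3 to 63.0 CPM in mature nuclei, while Pdgfd was at 75.0 to 151 against 6.43 to 21.0 CPM. The adaptors Gab1 and Grb2 and the phosphatase Ptpn11 were lower in precursors. Gab1 was at 183 to 266 CPM against 592 to 875 CPM, and Grb2 at 101 to 226 against 167 to 231 CPM.

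Other growth factor receptors gave 3 higher and 2 lower of 12, close to the share over all genes, with a median log2 ratio of 0.01. Ntrk2 (627 to 764 CPM) and Ntrk3 (713 to 1014 CPM), the receptors for the neurotrophins BDNF and NT-3, and Fgfr1 (68.7 to 161 CPM) were the higher ones. Fgfr2 was at 10.8 to 57.8 CPM against 311 to 634 CPM in mature nuclei. Among Notch and Wnt genes 4 of 9 were higher and 3 lower. Notch1 was at 85.9 to 196 CPM and its ligand Dll1 at 36.6 to 88.3 CPM, against at most 31.2 and 26.8 CPM in mature nuclei. Notch2 (6.31 to 35.0 CPM) and Daam2 (6.31 to 32.3 CPM) were lower than in mature nuclei, where they were at 92.3 to 127 and 97.3 to 126 CPM.

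Glutamate receptor genes were higher in precursors for 10 of the 24 compared with mature oligodendrocytes and lower for 3 (median log2 ratio 0.78). Against astrocytes 12 were higher and 3 lower. Gria4, an AMPA receptor subunit, was at 1366 to 2214 CPM in precursors, 300 to 741 CPM in mature nuclei and 549 to 869 CPM in spiny neurons. Grin3a, an NMDA receptor subunit that lowers calcium flux, was at 275 to 452 CPM in precursors and 44.6 to 79.5 CPM in spiny neurons. Cacng4, an AMPA receptor auxiliary protein, was at 352 to 455 CPM and 70.8 to 108 CPM. The precursor range lay above the spiny neuron range for each of these 3 genes.

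Other receptor genes did not stand above spiny neurons. Gria2 was at 1731 to 2208 CPM in precursors and 2002 to 2697 CPM in spiny neurons. Grin2b ran from 88.3 CPM in male pool 2 to 658 CPM in female pool 3, the library highest in neuronal markers, and was at 1951 to 2621 CPM in spiny neurons. The part of neuronal RNA in its level was not tested. Grm3, a metabotropic receptor, was lower in precursors, at 82.0 to 450 CPM against 2547 to 4871 CPM in mature oligodendrocytes and 1556 to 2603 CPM in astrocytes.

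Of the GABA receptor genes 5 of 11 were higher and 2 lower than in mature oligodendrocytes, and 2 higher and 6 lower than in astrocytes. Gabrg1, a subunit found in glia, was at 183 to 309 CPM, between mature nuclei (30.8 to 97.1 CPM) and astrocytes (369 to 627 CPM). Gabrb1 was at 252 to 951 CPM, far below astrocytes at 2183 to 3459 CPM. Among ion channels 7 of 15 were higher and 2 lower than in mature nuclei (median log2 ratio 0.62). Kcnd3, an A-type potassium channel, was at 249 to 397 CPM against 48.0 to 170 CPM, and Scn1a, a sodium channel, at 215 to 391 CPM against 76.1 to 293 CPM. Kcnq3, of the M-current, was lower in precursors, at 438 to 865 CPM against 1028 to 1705 CPM.

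Adhesion genes were higher for 15 of 24 and lower for 2 against mature oligodendrocytes (median log2 ratio 1.93), and higher for 17 and lower for 1 against astrocytes (2.14). Dscam, a homophilic adhesion and repulsion protein, was at 690 to 1148 CPM in precursors and reached 114 CPM in mature nuclei and 82.2 CPM in spiny neurons. Sema3d, a secreted guidance cue, was at 273 to 549 CPM against at most 27.3 CPM in the other glia. The synaptic organizers Nlgn1 (4155 to 6441 CPM), Lrrtm4 (3528 to 4920 CPM) and Lrrc4c (1952 to 2387 CPM) were also above mature nuclei in each library. Nrxn3 was at 2573, 2387 and 4650 CPM in the female and 4642, 1943 and 1897 CPM in the male pools. Both set A libraries were above all of set B for Nrxn3. The summed neuronal genes were at 1751, 1011 and 3008 CPM in the female and 1730, 1098 and 1219 CPM in the male pools. The part of neuronal RNA in the Nrxn3 level was not tested. This gene was picked after its values were seen.

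Neuromodulator receptors were mostly low. Of 16 listed, 6 reached the level needed for a comparison with mature nuclei, and 2 were higher and 3 lower. The dopamine receptors Drd1 (0 to 6.31 CPM) and Drd2 (0 to 28.9 CPM) and the opioid receptor Oprm1 (10.8 to 45.0 CPM) were low, with 0 to 4, 0 to 19 and 1 to 48 UMIs by library. Adra1a, an adrenergic receptor, was at 75.3 to 120 CPM against 20.6 to 69.3 CPM in mature nuclei and 132 to 259 CPM in astrocytes.

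Of the hormone receptors 0 of 6 were higher than in mature oligodendrocytes or astrocytes, with 2 and 5 lower. Thrb, a thyroid hormone receptor, was at 25.2 to 125 CPM against 222 to 375 CPM in mature nuclei, and in pooled committed nuclei it was at 258 CPM. The glucocorticoid receptor Nr3c1 was at 8.59 to 82.0 CPM and the estrogen receptor Esr1 at 10.8 to 85.9 CPM, ranges that overlapped those of mature nuclei (42.0 to 92.3 and 18.5 to 31.4 CPM). Among glucocorticoid response genes 1 of 6 was higher and 1 lower than in mature nuclei, and among immediate early genes 1 of 3 was higher and 0 lower.

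A small number of precursors carried several mitotic genes together. At least 3 different genes of 10 (Top2a, Mki67, Cenpf, Diaph3 and others) were found in 13 of 629 precursors (2.07%, 95% Wilson interval 1.21 to 3.5), a threshold chosen after the data were seen. Anln, a mitotic gene high in mature oligodendrocytes, was left out of the 10. At least 3 of the 10 were found in 3 of 3971 mature nuclei, in 1 of 1036 astrocytes and in 24 of 11893 spiny neurons. Spiny nuclei were deeper (median 6609 UMIs, against 2947 in precursors and 2158 in mature nuclei). By library these 13 were 4, 0 and 5 in the female and 3, 1 and 0 in the male pools. The Wilson intervals of the mitotic counts pool nuclei over libraries and cover counting error only. Top2a, a topoisomerase of dividing cells, was seen in 1.28% of precursors thinned to 1000 UMIs per nucleus and in 0.0757% of spiny neurons thinned alike. Without thinning Top2a was at 0 to 40.6 CPM in precursors.

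Looser counts were less specific to precursors. At least 2 UMIs of the 11 mitotic genes occurred in 31 precursors (4.93%, interval 3.49 to 6.91) but also in 5.72% of spiny neurons and 8.61% of mature oligodendrocytes, where Anln alone was at 86.2 to 137 CPM. At an equal 1000 UMIs per nucleus the shares were 1.76% (0.986 to 3.12), 0.227% and 2.08%, with 4 shallower precursors left out. Mki67 was at 0 to 74.4 CPM in precursors and 5.73 to 76.7 CPM in spiny neurons, ranges that overlapped.

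Nuclei of the committed stage were few: 77 were gated by Enpp6 and at least 3 UMIs of Bcas1 without Pdgfra, Mog or Aqp4, a gate chosen after a gate on Gpr17 had taken no nucleus. Outside the genes of that gate, Tns3, a focal adhesion protein of new oligodendrocytes, was at 2054 CPM in the pooled committed nuclei and at 259 to 412 CPM in precursors. Fyn, a kinase of myelination, was at 1683 CPM against 419 to 575 CPM, and Sirt2 at 1027 CPM against 64.5 to 155 CPM. Tcf7l2 was at 940 CPM and Itpr2, a calcium channel of this stage, at 371 CPM, against 86.0 to 190 CPM in precursors. Tns3, Fyn, Sirt2, Tcf7l2 and Mbp (3342 CPM against 172 to 328 CPM) were above precursors in 6 of 6 libraries, while Itpr2 was above them in 5.

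Genes of precursors were lower in the same nuclei. C1ql1 was at 104 CPM, Ptprz1 at 281 CPM, Chst11 at 53.5 CPM and Col5a3 at 6.69 CPM, all below the lowest precursor library. Some matrix genes stood the other way: Tnr was at 3105 CPM against 1035 to 1575 CPM, Chsy3 at 776 CPM against 183 to 407 CPM and Bcan at 258 CPM against 51.5 to 172 CPM, each above precursors in 6 of 6 libraries. Sema5a was at 1228 CPM against 372 to 555 CPM, above in 5 of 6. Bmp4 was at 214 CPM against 53.8 to 74.4 CPM. Casr had no UMI in the 2387691 UMIs of all precursors, which allows up to 1.26 CPM by counting error, and was at 70.3 CPM in committed nuclei. Neu4 had no UMI in precursors or in any other class examined.

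There were 13.2, 7.69 and 15 committed precursors per 100 precursors in the female pools and 8.09, 14.6 and 6.98 in the male pools, from 10, 3, 42, 11, 8 and 3 nuclei. The sexes overlapped, with means of 11.95 ± 3.80 and 9.87 ± 4.09 (SD, n = 3 each; exact 2-sided permutation p = 0.6, adjusted 0.7). The female minus male difference was 6.91 within set A and -0.336 within set B. When nuclei were thinned to 1000 UMIs the sign turned, at -21.85 (exact permutation p = 0.3).

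Sex was tested across genes on precursor counts summed per library with edgeR's quasi-likelihood test and label set as a term. At an adjusted p under 0.05, 8 of 4971 genes tested were called (0.161%), 3 higher in females and 5 in males, and 263 had an unadjusted p under 0.05. Each of the 3 Y-linked genes tested was called by edgeR, and DESeq2 did not call Kdm5d (adjusted p = 0.154). Ddx3 was at 0 in the 3 female pools and at 88.2, 94.6 and 77.3 CPM in the male pools, at least 42.6-fold higher in males when the female pools are set to 3 counts in all. Eif2s3y was at 0 in the female pools and at 59.3, 63.1 and 77.3 CPM in the male pools, at least 30.2-fold higher. Kdm5d was at 13.5, 0 and 0 CPM in females and 100, 126 and 163 CPM in males, the first female value resting on 4 UMIs. These 3 genes check the sex labels, and no library went against its label. Without male pool 1 edgeR no longer called Ddx3 (adjusted p = 0.645), Kdm5d (0.272) or Eif2s3y (0.865), and without female pool 3 it did not call Eif2s3y (0.189). Set A holds only male pool 1 and female pool 3, so when either is left out the label set term takes up the other. Both fits thus compare the sexes within set B alone and are not separate checks.

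Of the other 5 called genes, 4 are known here only by a locus name. AABR07039356.2 was at 372, 613 and 491 CPM in females and 28.9, 0 and 0 CPM in males (log2 difference 4.69, edgeR adjusted p = 2.4e-07). LOC680227 was at 5625, 2269 and 352 CPM in females and at 22.8, 0 and 8.59 CPM in males (6.24, edgeR adjusted p = 4.0e-07), with female pool 3 far below the other female pools. AC241873.1 was at 16.9, 43.0 and 5.63 CPM in females and 219, 208 and 197 CPM in males (-4.20, edgeR adjusted p = 6.4e-07). None of these 3 overlapped between the sexes, as was the case for 7.08% of the 4971 genes. LOC100364435 was at 57.5, 108 and 31.9 CPM in females and 202, 88.3 and 189 CPM in males (-1.86, edgeR adjusted p = 0.0208), groups that overlapped, and DESeq2 did not call it (adjusted p = 0.916). It was lost in edgeR without female pool 1 (adjusted p = 0.0957), female pool 3 (0.911), male pool 1 (0.905) or male pool 3 (0.186). The fits without female pool 3 and without male pool 1 both rest on set B alone.

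Nkain2, whose protein interacts with the sodium pump, was called higher in females (log2 difference 1.05, SE 0.197, edgeR adjusted p = 0.0186). Its levels were 612, 548 and 1387 CPM in females and 836, 202 and 258 CPM in males, which overlapped: male pool 1 was above female pools 1 and 2. The difference was 0.73 within set A and 1.34 within set B. Nkain2 was at 5127 CPM on average in spiny neurons and 3223 CPM in mature oligodendrocytes. Without the members rich in neuronal RNA its levels were 356, 548 and 813 CPM in females and 671, 202 and 250 CPM in males, and the edgeR adjusted p was 0.583. Its call was also lost in edgeR without any one library other than female pool 2 (adjusted p from 0.0880 to 0.155).

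**Figure D4:**
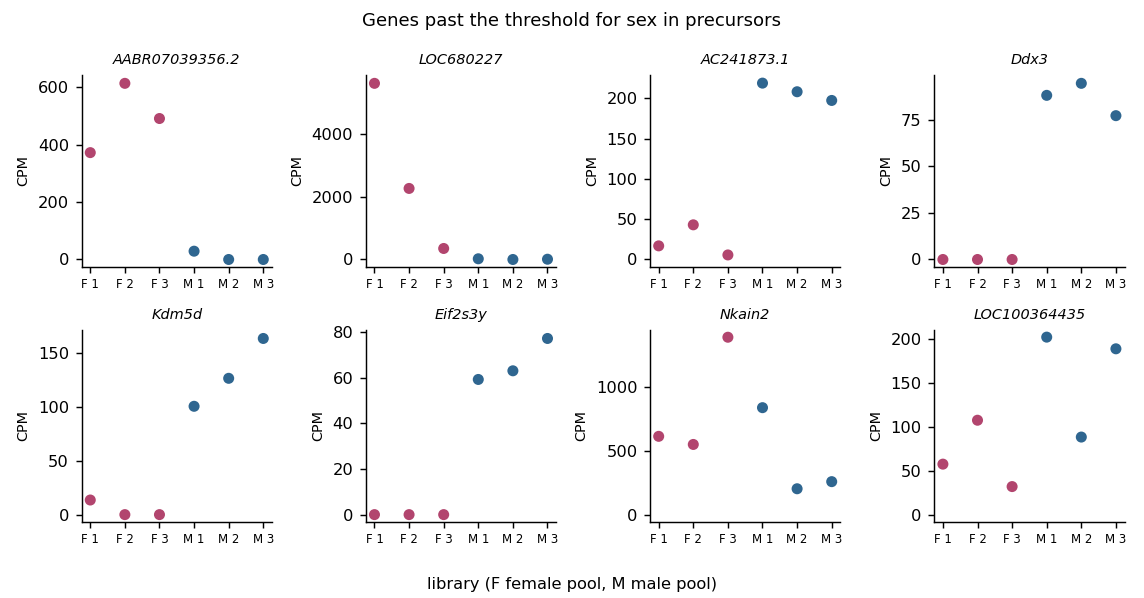
Levels in CPM (from 0) of the 8 genes past the threshold for sex, for each female (F) and male (M) pool. The sexes do not overlap for the 6 genes from AABR07039356.2 to Eif2s3y, and they overlap for Nkain2 and LOC100364435.

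Among the listed precursor genes other than the Y-linked ones none was called. Of the 8 lineage transcription factors tested all 8 had a log2 difference below 0, as did 2558 of all 4971 genes tested. None of the 8 had an unadjusted p under 0.05: Sox6 was at -0.34 (SE 0.172, edgeR adjusted p = 0.954) and Sox10 at -0.28 (SE 0.228, edgeR adjusted p = 0.976). Of 22 glutamate receptor genes 0 were called and 3 had an unadjusted p under 0.05. Grm8 was at 338, 172 and 326 CPM in females and 167, 94.6 and 189 CPM in males (0.98, edgeR adjusted p = 0.152), overlapping only between female pool 2 and male pool 3. Kdm6a, a histone demethylase gene on the X chromosome that escapes inactivation, was at 308, 290 and 312 CPM in females and 182, 240 and 180 CPM in males, groups that did not overlap (0.62, SE 0.203, edgeR adjusted p = 0.409). The other listed X-linked genes of this kind that were tested had log2 differences of 0.53 (Eif2s3), 0.39 (Usp9x), 0.28 (Ddx3x) and -0.02 (Kdm5c), and none was called.

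The 10 genes next in order of p were Rpl41, Hs6st3, Foxp2, Cntn5, Rps18, Chst9, Pex5l, Rpl3, Rps23 and Mt3, with edgeR adjusted p from 0.0691 to 0.152. Those lower in females were Rpl41, Rps18, Rpl3 and Rps23, which encode ribosomal proteins and have many near-identical copies so that their counts are uncertain, and Mt3. Zbtb16, a glucocorticoid-induced factor, was at 132, 280 and 46.9 CPM in females and 41.0, 50.5 and 68.7 CPM in males (0.94, edgeR adjusted p = 0.642). Sgk1, a kinase induced by glucocorticoids, was at 108, 183 and 160 CPM in females and 190, 164 and 94.4 CPM in males (-0.16, edgeR adjusted p = 0.979). In simulated counts for 4971 genes the fit recovered 62% of 2-fold and 99% of 4-fold differences with 12 false calls. The number called moved with single libraries: it was 4 without male pool 1, a fit that rests on set B alone, and 59 without female pool 2.

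Whether sex differed otherwise in precursors than in mature oligodendrocytes was tested as an interaction in edgeR over 12 sums, 2 classes in each library. It called 25 of 10504 genes (0.238%), 22 with a lower and 3 with a higher female minus male difference in precursors, and 566 had an unadjusted p under 0.05. In simulated counts for 10504 genes this fit recovered 17% of 2-fold and 64% of 4-fold differences with 5 false calls. Of the 21 that were named by rule, 19 were lower in precursors, and in each of those 19 the mature nuclei had a higher female than male mean. The calls used these same mature values, so this count is not a separate result. Its share over all genes tested was not computed. Female and male precursor pools did not overlap for 3 of the 21, against 6.96% of all genes tested, and the mature pools did not overlap for 7, against 7.66%. These shares are given as background, since the calls used the same values. With DESeq2, and with label set left out of the edgeR fit, 0 were called (138 and 385 with an unadjusted p under 0.05). All-neuron markers in the mature nuclei stood at 1290, 2762 and 3422 CPM in the female and 2153, 852 and 955 CPM in the male pools, and 16 of the 21 genes were higher in spiny neurons than in mature nuclei (47.4% of all genes tested were). Of the 21, 4 were higher in spiny neurons than in precursors (41.2% of all). The part of neuronal RNA in these calls was not tested gene by gene. Without the precursors rich in it, 10 genes were called, 9 of them among the 25.

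Il1rapl2, a synaptic adhesion protein of the interleukin-1 receptor family, had the smallest p. In precursors it was at 118, 64.5 and 220 CPM in females and 258, 391 and 464 CPM in males, with every male pool above every female pool. The female minus male log2 difference in precursors was -0.23 within set A and -2.27 within set B, and Il1rapl2 was not among the 8 genes called for sex in precursors. In mature nuclei it was at 263, 512 and 353 CPM in females and 194, 276 and 180 CPM in males. The interaction was -1.82 (SE 0.267, edgeR adjusted p = 4.1e-06), and the gene was called in 13 of 16 alternatives. DESeq2 did not call Il1rapl2 (adjusted p = 0.266).

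Cntn6, Robo2 and Sox6 were also called, and their precursor pools overlapped between the sexes. Cntn6, a contactin, was at 720, 645 and 639 CPM in female and 663, 700 and 824 CPM in male precursors, and at 96.4, 92.3 and 172 against 83.0, 32.2 and 35.3 CPM in mature nuclei (-1.34, edgeR adjusted p = 0.00123). Robo2, a Slit receptor, was at 304, 290 and 675 CPM in female and 578, 379 and 421 CPM in male precursors (-1.25, edgeR adjusted p = 0.00294). Sox6 was at 2485, 1957 and 1987 against 2336, 2984 and 2816 CPM in precursors and at 191, 227 and 262 against 173, 116 and 97.1 CPM in mature nuclei (-1.08, edgeR adjusted p = 0.00842). For Sox6 the mature pools did not overlap. The call was lost in edgeR without female pool 3 for Cntn6 (adjusted p = 0.0514) and without male pool 2 for Robo2 (0.0842). For Sox6 it was lost without female pool 3 or any one male pool (edgeR adjusted p from 0.122 to 0.19) and without the members rich in neuronal RNA (0.0598). The interaction fits without female pool 3 and without male pool 1 both rest on set B alone for the sex difference.

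Inpp5d, a phosphatase gene of microglia, had an interaction of 3.31 (edgeR adjusted p = 0.00996), which was not called without any one library other than female pool 2 (adjusted p from 0.0508 to 0.518). Of these fits, those without female pool 3 and without male pool 1 both rest on set B alone. Inpp5d was at 54.1, 43.0 and 40.3 CPM in female and 4.56, 0 and 0 CPM in male precursors. The summed microglial markers were also higher in female precursors in 3 of 3 pools. That sum includes Inpp5d itself, so it is not separate from this value. The part of microglial RNA in the Inpp5d value was not tested. Sgk1 did not pass for the interaction (-1.08, edgeR adjusted p = 0.0628): its female and male means were both 150 CPM in precursors, while the mature pools were at 161, 143 and 135 CPM in females and 86.3, 63.3 and 57.9 CPM in males.

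**Figure D5:**
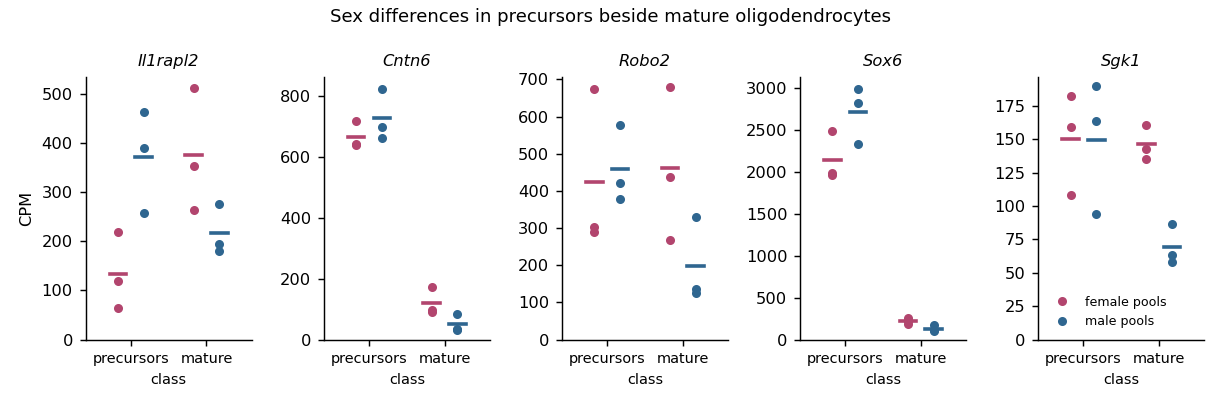
Levels in CPM of 5 genes in precursors and mature oligodendrocytes, with points for the female and male pools and bars for their means (n = 3 each). The male precursor points lie above the female ones for Il1rapl2, and the precursor points of the sexes overlap for Cntn6, Robo2 and Sgk1, of which Sgk1 did not pass the interaction test.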

How the data were processed

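Droplet libraries (10x Genomics, 3′ chemistry) were made from nuclei of frozen shell punches. The authors counted UMIs with Cell Ranger 4.0.0, per the file headers, and deposited raw counts. The genome was rn6, per the submitters' processing notes. Which gene annotation they used is not given here. Nuclei were kept with at least 500 UMIs, 300 genes and under 5% mitochondrial UMIs. Doublets were not scored. No nucleus passed more than 1 gate, which the gates fix by construction, so this says nothing about doublets.

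Counts were summed per library and class and scaled to CPM. Genes were tested with edgeR 4.0.16 (TMM scaling, filterByExpr, quasi-likelihood test, Benjamini-Hochberg adjustment over all genes) in R 4.3.3, with label set as a term. The interaction fit had library as a block. DESeq2 1.42.0 was an alternative, and the fits were tested on simulated data. Shares were compared by exact permutation tests (scipy 1.17.1).

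The members and gene lists were chosen with earlier results of these data known. Genes named are those called, up to 20 by p, the next 10, and the listed genes. No library was a copy of another: chi-square per degree of freedom was 1.57 to 6.20 between libraries of the same sex. Sox4, Znrf3, Kcnd2, Uty, Lhfpl3, Pecam1, Col1a2 and Meg3 were not analysed here. Alternatives were other gates, depth and mitochondrial limits, filters, size factors, terms, and each library left out.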

Additional observations from a re-analysis of the deposited data

Results flagged for a closer look

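The difference between the sexes was called different in precursors and mature oligodendrocytes for 21 named genes, by edgeR's test of the interaction (log2, female minus male in precursors minus the same in mature oligodendrocytes). DESeq2, and edgeR with no label set term, called 0 genes. The values below 0 were -1.82 for Il1rapl2, -2.14 for AABR07003304.2, -1.34 for Cntn6, -1.25 for Robo2, -2.73 for Gpc3, -1.27 for Sorcs3 and -1.21 for Epha5. They were -1.41 for Elavl4, -1.42 for Grik3, -2.71 for Reln, -1.12 for Brinp3, -1.12 for Cntn4, -1.15 for Grm5 and -1.08 for Sox6. They were -1.13 for Kcnc2, -2.80 for AABR07039356.2, -1.06 for Lrrtm4, -2.10 for Col19a1 and -1.04 for Scn8a. The values above 0 were 2.70 for Aspa, a gene of mature oligodendrocytes, and 3.31 for Inpp5d. Gpc3, Reln, Aspa, Col19a1, AABR07039356.2 and Inpp5d had libraries at 0 or at few UMIs in precursors: Gpc3 was at 30.4, 0 and 20.6 CPM in females and 66.9, 0 and 94.4 CPM in males, and Inpp5d at 4.56, 0 and 0 CPM in males. Those fitted values depend on the prior count of the fit. AABR07003304.2 was low in mature nuclei instead, at 14.77, 12.59 and 36.01 CPM in females and 8.996, 0 and 2.941 CPM in males. Its precursor means were 322.4 CPM in females and 323.1 CPM in males, so its value of -2.14 rests on these low mature levels.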

How the results depend on the processing

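Deviations of same-numbered female and male pools correlated at -0.42, 0.16 and -0.29. Numbers 1 and 3 each cross the label sets, and female pool 3 with male pool 1, both of set A, correlated at 0.598. These values therefore cannot decide whether the replicate numbers pair the libraries. With the number as a replicate block 11 genes were called for sex, 8 of them those of the report, and Sgk1 for sex turned to 0.01 (0.0131). The count of sex calls was 29 with no filter on low counts, 3 with no label set term, 5 with the stricter gate and 44 with mitochondrial genes under 3%, and 4 to 59 when each library was left out. The interaction count was 0 with DESeq2, 0 with no label set term, 10 with the stricter gate, 10 with the neuronal limit (chosen after seeing the data) and 6 to 41 with a library left out: 6 without female pool 3, 7 without male pool 2, 11 without male pool 1 and 41 without female pool 1. Nkain2 was called for sex in 7 of 17 alternatives, with adjusted p from 0.000164 to 1.0. In both comparisons the fits without female pool 3 and without male pool 1 compare the sexes within set B alone. The label set term takes up the set A library that remains, so they are not separate checks of single libraries. The cause of the changes in these counts and calls was not tested.

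Leaving out libraries gave a female minus male difference of -0.055 to 0.466 points for the share of kept nuclei, 1.91 to 9.58 for the lineage share and 0.555 to 4.42 for committed precursors per 100 precursors. The last was 6.51 with mitochondrial genes under 3% (exact permutation p = 0.3) and -21.85 after thinning. Asking for 2-fold in all 6 libraries left 329 genes higher and 285 lower than mature nuclei, and 294 higher and 357 lower than astrocytes, from the construction of that rule. Interactions that turned sign were AABR07039356.2 (4.35 with the stricter gate, 0.61 without female pool 3, 0.59 without male pool 1 and down to -2.86 without male pool 2), Slit1 (0.30 and 0.34 without those pools and down to -1.96 without female pool 1) and Kdm6a (-0.12 with the stricter gate). Mean levels of listed genes moved by less than 1 SD in 1172 recomputed values and by more in 18. A mitochondrial limit of 1% left no precursor in female pool 2, so the gene fits, lineage share and committed ratio were not run there. With 92990 UMIs in the shallowest library, genes at a few CPM rested on single UMIs.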
